A study of Mus musculus with 6 samples.

Results

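The Rab GTPases are the largest branch of the Ras family of small GTP-binding proteins. The genes described here are those whose symbol in the tables is Rab followed by a number and at most a letter and a further digit. This rule took 58 of 15483 genes, and it used names only and no measured value. It leaves out the Rab-like genes and the genes of Rab regulators, which are treated as separate lists further on.

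A Rab protein carries a C-terminal lipid anchor and switches between a GDP-bound and a GTP-bound state. An exchange factor (GEF) loads it with GTP at a given membrane, where it recruits effectors that move, tether or fuse vesicles. A GTPase-activating protein (GAP) then returns it to the GDP form, and a GDP dissociation inhibitor (GDI) carries it through the cytosol. Each Rab marks particular organelles, and in leukocytes Rabs govern receptor recycling, phagosome maturation and the release of stored granules.

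The study compared RNA-seq libraries of regulatory T cells (Tregs) sorted from the bone marrow of mice, with 3 libraries in the control group and 3 in the group taken 3 months post irradiation. All mice were labelled WT, so no allele separates the groups. The sort took NK1.1-negative CD4 T cells positive for CD3 and Foxp3, per the series' design text. The sources used here do not give the strain, the age, the radiation dose or whether cells of several mice were pooled. Replicates are not tied to separate animals by the labels, and the p-values therefore reflect only how these libraries vary, which may be technical.

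Levels are FPKM, which scales fragments by the length of the transcript and the size of the library. The values carry no counts, so the absolute depth of a library is unknown, and the depth relative to control replicate 1 was between 81.6% and 103%, lowest in irradiated replicate 3. Transcripts of other marrow cells were present in every library. The neutrophil gene S100a8 had mean levels of 25283 ± 1249 (control) and 39026 ± 427 FPKM (irradiated; SD, n = 3), against 68.9 ± 3.54 and 36.5 ± 1.31 FPKM for the T cell adhesion gene Cd2. The 14 neutrophil markers fixed for these libraries summed to between 68184 and 73204 FPKM in control and between 99521 and 102429 FPKM in irradiated libraries, and 10 of 14 rose and 0 fell. The 12 T cell markers, Foxp3 among them, summed to between 469 and 487 FPKM in control and between 278 and 289.6 FPKM in irradiated libraries, and 11 of 12 fell and 0 rose. All 12 macrophage markers fell (824 to 862 FPKM against 304 to 328 FPKM), as did all 11 tested B cell markers (158 to 166 FPKM against 47.9 to 57.5 FPKM). Of 8 tested dendritic cell markers 7 fell (227 to 236 FPKM against 108 to 123 FPKM), of 7 NK cell markers 6 fell (69.5 to 76.2 FPKM against 34.2 to 38.8 FPKM), and of 8 erythroid markers 4 fell (948 to 1121 FPKM against 628 to 658 FPKM). Of 6 plasma cell markers 3 rose and 1 fell (236 to 249 FPKM against 540 to 571 FPKM), and of 8 eosinophil or basophil markers 4 rose and 3 fell (4649 to 5183 FPKM against 4028 to 4038 FPKM). Of 3 tested platelet markers 1 rose and 1 fell (43.6 to 50.4 FPKM against 71.9 to 72.8 FPKM). In the neutrophil, T cell, macrophage, plasma cell, eosinophil or basophil, erythroid and NK cell lists no marker was at 0 in any library, while Igll1 (B cell), Xcr1 (dendritic cell) and Gp9 (platelet) were at 0 in at least 1. In sorted bulk samples like these, fewer cells of a type and less RNA per cell cannot be told apart, and which cells gave the Rab transcripts was not tested.

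Rab transcripts were abundant, with 28 of 58 genes averaging 10 FPKM or more across libraries and 4 of them 100 FPKM or more. The highest were Rab7, which drives traffic from late endosomes to lysosomes, and Rab5c, a Rab of early endosomes. For replicates 1, 2 and 3, Rab7 measured 131, 124 and 124 FPKM in control and 127, 125 and 126 FPKM in irradiated libraries. Rab5c measured 132, 128 and 123 FPKM in control and 122, 120.2 and 125 FPKM in irradiated libraries. The groups overlapped for both genes. Rab44, a large atypical Rab with a calcium-binding region, ranked 3 in mean level, followed by Rab1b of the route from the endoplasmic reticulum (ER) to the Golgi, Rab8a of surface delivery and Rab27a of granule docking. At the other end, 15 genes had a mean under 1 FPKM and 9 were at 0 in at least 1 library. Summed over the 58 genes, Rab transcripts made up 1471 to 1483 FPKM in control and 1557 to 1576 FPKM in irradiated libraries. As a share of all FPKM in a library, which is not weighted by transcript length, that was 0.314% to 0.328% in control and 0.324% to 0.325% in irradiated libraries, and the groups overlapped on that scale.

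**Figure D1:**
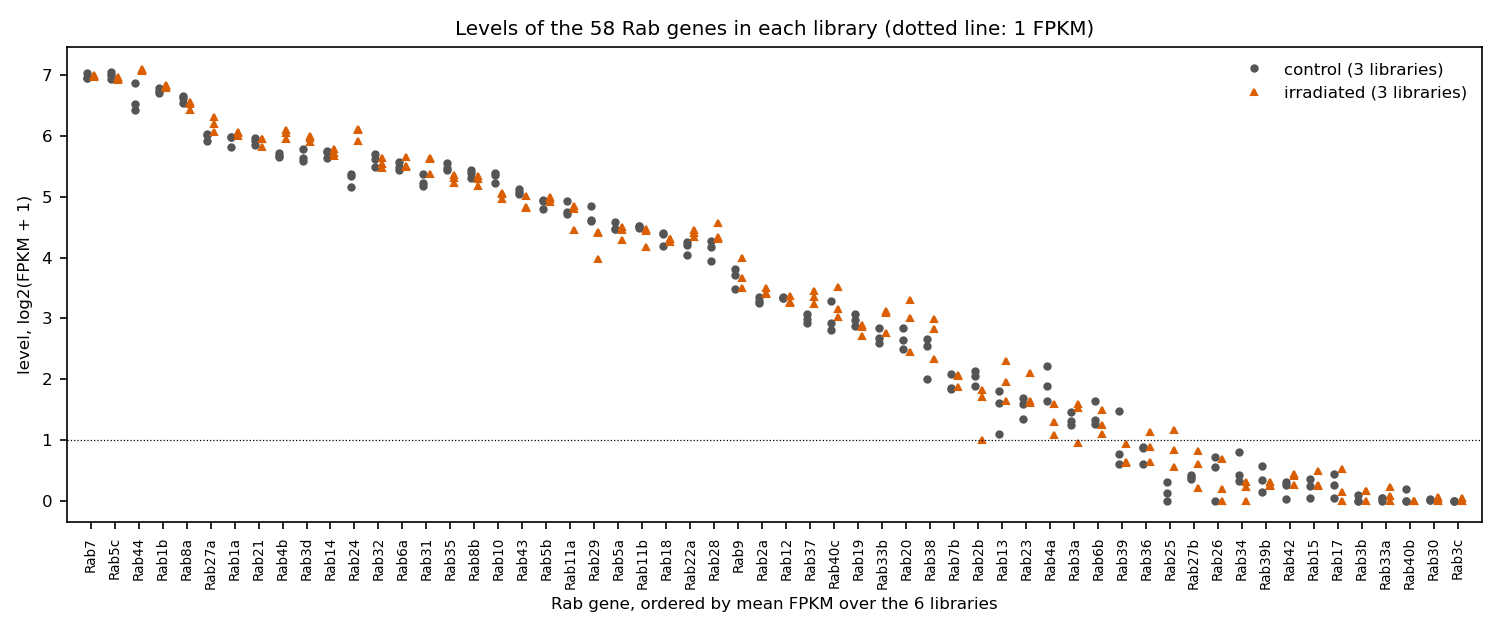
Level of each of the 58 Rab genes as log2(FPKM + 1) in 3 control libraries (grey circles) and 3 irradiated libraries (orange triangles), ordered by mean FPKM over the 6 libraries, with a dotted line at 1 FPKM. Rab7 and Rab5c head the order, and 15 genes have a mean under 1 FPKM.

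Setting irradiated against control libraries asks whether transcripts of the vesicle traffic machinery differ 3 months after irradiation. Of the 43 Rab genes that reached the minimum mean of 1 FPKM for testing, 6 rose (Rab24, Rab44, Rab4b, Rab37, Rab3d and Rab31), 2 fell (Rab10 and Rab29) and 35 did not pass. The test was limma on log2(FPKM + 1) over 10666 genes, with p-values adjusted by Benjamini-Hochberg and called under 0.05. The 8 genes are 18.6% of the Rabs tested, where 16.6% of all tested genes were called. By direction, 14.0% of the tested Rabs rose against 6.29% of all tested genes, and 4.65% fell against 10.3%. The groups did not overlap for 18 of 43 Rabs (41.9%), 11 of them higher and 7 lower after irradiation, against 33.6% of all tested genes (13.5% higher and 20.1% lower). At an unadjusted p under 0.05 by limma, 9 of 43 Rabs were higher and 6 lower, where 1292 of all 10666 tested genes were higher and 1864 lower. The median log2 change of the tested Rabs was 0.05, and that of all tested genes was -0.02. The share of Rabs called lies near the background, so the count itself says little about the family. Without control replicate 2 the number of Rabs called was 3, without control replicate 3 it was 5, and without irradiated replicate 3 it was 4. Over all tested genes the share called also fell in those fits, to 10.7%, 15.6% and 13.2%. Rab24, Rab4b and Rab44 passed in all 13 alternative fits. Besides the fits that left out a library, Rab3d, Rab10, Rab29 and Rab31 missed the threshold without a variance trend (adjusted p 0.0633, 0.0505, 0.0950 and 0.124), and Rab29, Rab31 and Rab37 without the filter on low values (0.113, 0.111 and 0.0781). Rab29 also missed it with quantile normalization (0.0550).

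**Figure D2:**
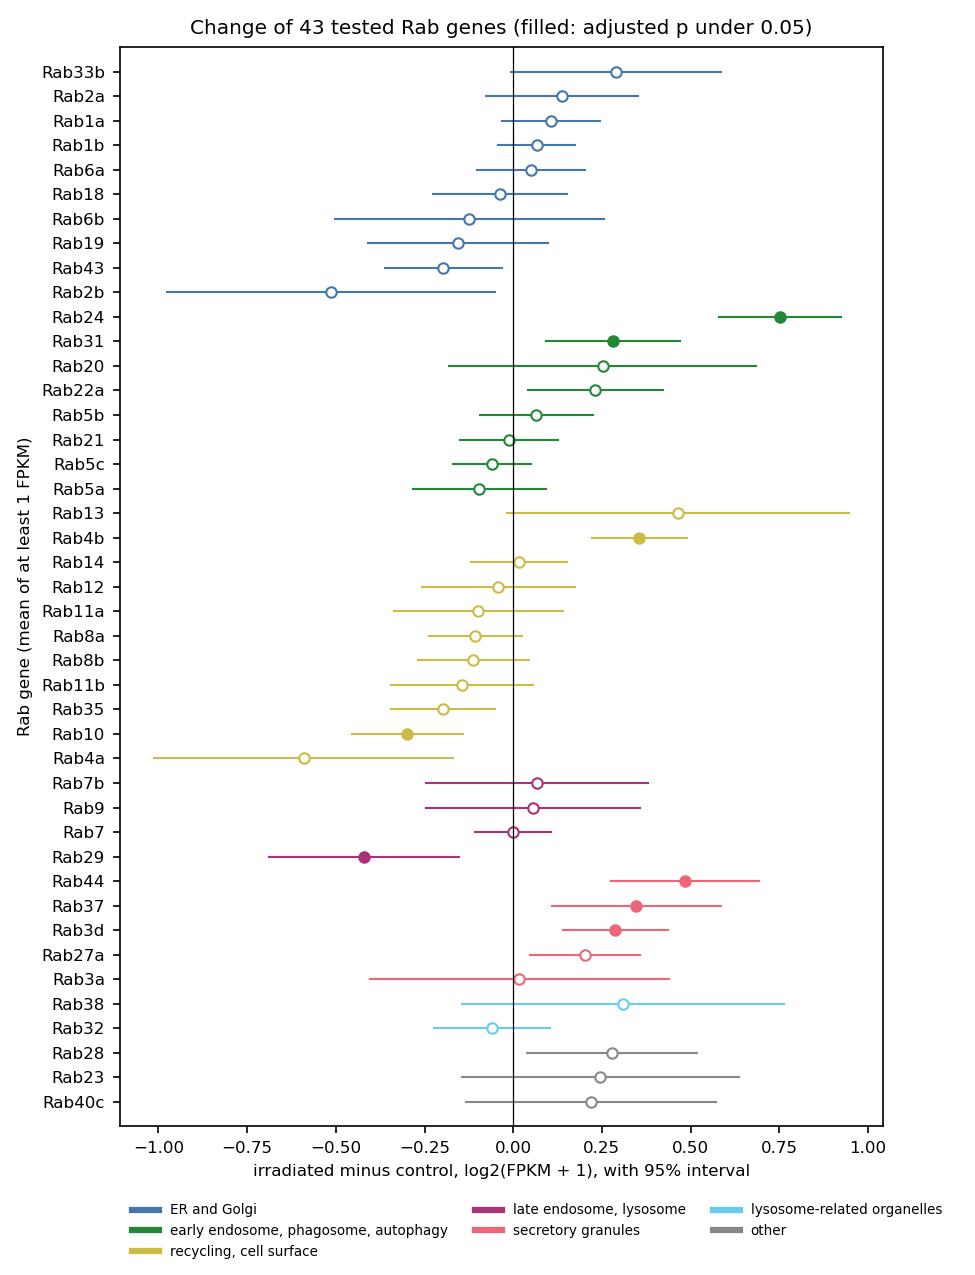
Difference between irradiated and control libraries for the 43 tested Rab genes, in log2(FPKM + 1), with the 95% interval from limma, grouped by the organelle each Rab is best known for. Filled points passed an adjusted p of 0.05: Rab24 lies farthest to the right at 0.75 and Rab29 is the lowest filled point at -0.42.

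The grouping by organelle was chosen with earlier results of these data known, so the share called in a group is a description only. Among Rabs of early endosomes, phagosomes and autophagy, 2 of 8 tested genes rose (Rab24 and Rab31; 25.0%, against 6.29% of all tested genes) and 0 fell (against 10.3%), and at an unadjusted p under 0.05 3 were higher and 0 lower. Rab24, an atypical Rab linked to autophagy, had the largest change of any tested Rab. Control replicates 1, 2 and 3 had Rab24 levels of 34.9, 39.5 and 40.5 FPKM, and the irradiated replicates had 67.7, 59.6 and 68.4 FPKM. Each irradiated library lay above each control library, with a gap between the groups wider than the range of either. The ratio of means was 1.70, and the log2 change was 0.75 ± 0.08 (SE) with a limma adjusted p of 5.7e-05. Over the alternative fits its adjusted p was at most 0.0026. Rab24 (ENSMUSG00000034789, chromosome 13, 55319743 to 55321946, minus strand, GENCODE M21 on GRCm38) shares 1258 of its 2015 exonic bases with Prelid1, a gene of mitochondrial lipid transfer on the other strand. The libraries came from a stranded kit, but the sources used here do not say whether the authors' counting used strand. Without use of strand, reads over the shared bases cannot be told apart. Prelid1 itself rose from 226 ± 10.9 to 259 ± 5.72 FPKM (SD, n = 3), by 0.20 ± 0.05 on the log2 scale (limma adjusted p = 0.0189).

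Rab31, which works between the Golgi and endosomes, and on phagosomes, measured 40.7, 35.4 and 36.4 FPKM in control and 48.2, 40.5 and 48.8 FPKM in irradiated libraries. Irradiated replicate 2 lay below control replicate 1, so the groups overlapped. The log2 change was 0.28 ± 0.09 (limma adjusted p = 0.0471). Rab31 no longer passed without control replicate 2 or 3 or without irradiated replicate 1 or 3, with adjusted p up to 0.156. Rab22a, its nearest relative, stood at 15.5, 18.05 and 17.6 FPKM in control and 20.3, 20.98 and 19.2 FPKM in irradiated libraries. The groups did not overlap, and Rab22a missed the threshold (log2 change 0.23 ± 0.09, adjusted p = 0.0957, limma). The 3 Rab5 genes, whose products organise early endosomes, had log2 changes from -0.10 (Rab5a) to 0.06 (Rab5b) and did not pass. For Rab5c the 95% interval ran from -0.17 to 0.05. Rab21, which acts in integrin uptake, had an interval from -0.15 to 0.13. Rab20, a Rab of maturing phagosomes, varied between 4.43 and 8.85 FPKM within the irradiated group and had an interval from -0.18 to 0.68.

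Of 5 tested Rabs of secretory granules, 3 rose (Rab44, Rab3d and Rab37; 60.0%, against 6.29% of all tested genes) and 0 fell (against 10.3%). At an unadjusted p under 0.05, 4 of the 5 were higher and 0 lower, where 1292 of all 10666 tested genes were higher and 1864 lower. The median log2 change of the 5 Rabs was 0.29, against -0.02 over all tested genes. Because the grouping was chosen with earlier results of these data known, these shares and the median describe the group and are not a test of it. Rab44 measured 91.1, 85.1 and 117 FPKM in control and 134 (replicate 1), 137 (replicate 2) and 135 FPKM (replicate 3) in irradiated libraries. The irradiated libraries agreed closely with each other, while control replicate 3 stood well above the other control libraries, yet below each irradiated one. The log2 change was 0.48 ± 0.09 with a limma adjusted p of 0.00504. Rab3d, a Rab on the granules of exocrine cells and mast cells, measured 54.3, 48.8 and 47.2 FPKM in control and 58.9, 61.97 and 62.97 FPKM in irradiated libraries. These groups did not overlap either, and the log2 change was 0.29 ± 0.07 (limma adjusted p = 0.0134). The Rab3d call was lost without control replicate 2 and without irradiated replicate 3, and the adjusted p reached 0.0633 over all alternatives.

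Rab37, linked to granule release in mast cells, was lower in level, at 6.63, 6.95 and 7.45 FPKM in control and 8.46, 9.25 and 9.89 FPKM in irradiated libraries. Its groups did not overlap, and the log2 change was 0.35 ± 0.11 with a limma adjusted p of 0.0495. Leaving out any 1 of the 6 libraries ended the call, with adjusted p up to 0.154, as did the replicate block (0.0658). The myeloid receptor gene Cd300lf lies on the other strand within Rab37, shares 0 exonic bases with it, and changed by 0.87 ± 0.07. Rab27a, which docks the lytic granules of T cells and the granules of neutrophils, measured 64.7, 59.5 and 63.95 FPKM in control and 66.2, 72.4 and 78.7 FPKM in irradiated libraries. Each irradiated value lay above each control value, by a small margin for replicate 1, and Rab27a missed the threshold (log2 change 0.20 ± 0.07, adjusted p = 0.0783, limma). Rab27a did pass with median-of-ratios scaling and without irradiated replicate 1, at an adjusted p of 0.0342 for the lowest of the alternatives. Rab3a, the Rab of synaptic vesicles, was at 1.54 ± 0.205 and 1.61 ± 0.581 FPKM (SD, n = 3), with an interval from -0.40 to 0.44 around a log2 change of 0.02. The summed level of the secretory Rabs was 202 to 238 FPKM in control and 271 to 289 FPKM in irradiated libraries. In the same libraries 10 of 14 neutrophil markers rose and 0 fell (median log2 change 0.33), while 4 of 8 eosinophil or basophil markers rose and 3 fell (median 0.09) and their summed level was lower. The part of either cell type in the rise of the secretory Rabs was not tested.

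**Figure D3:**
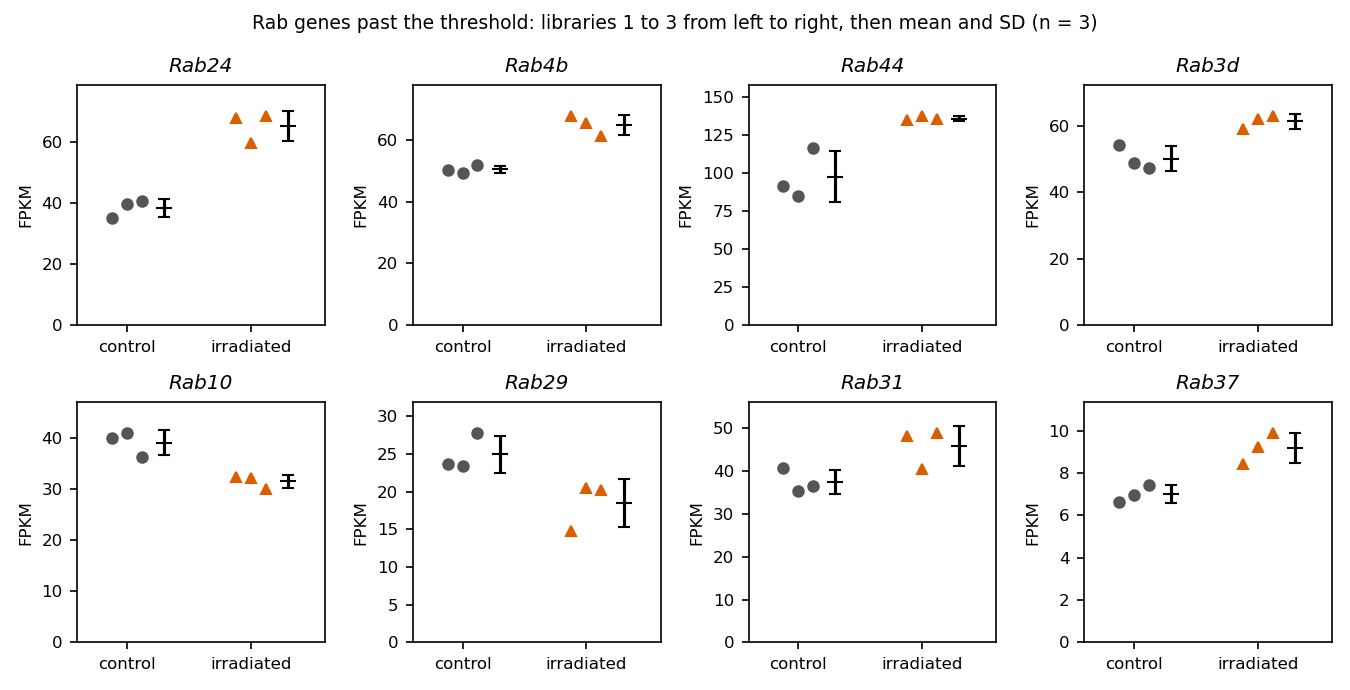
FPKM of the 8 Rab genes past the threshold in control (grey circles) and irradiated (orange triangles) libraries, with replicates 1 to 3 from left to right and the mean and SD (n = 3) beside them, each axis starting at 0. The groups overlap in the Rab31 panel alone, and Rab24 shows the widest gap.

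Of 11 tested Rabs of recycling and surface delivery, 1 rose (Rab4b) and 1 fell (Rab10), 9.09% each way against 6.29% and 10.3% of all tested genes, and at an unadjusted p under 0.05 1 was higher and 3 were lower. Rab4b, which returns receptors from early endosomes to the cell surface, measured 50.1, 49.3 and 51.7 FPKM in control and 67.7, 65.4 and 61.2 FPKM in irradiated libraries. The control libraries were tightly grouped and lay below each irradiated library. The log2 change was 0.36 ± 0.06 with a limma adjusted p of 0.00208, and at most 0.0218 over the alternatives. Rab4b (chromosome 7, 27168424 to 27178896, minus strand, GENCODE M21) shares 1280 of its 1970 exonic bases with Gm21983, an overlapping coding gene model on the same strand that was not analysed here, so both models could share reads. Its close relative Rab4a measured 2.10, 3.63 and 2.69 FPKM in control and 2.002, 1.12 and 1.45 FPKM in irradiated libraries. Rab4a thus lay in the other direction without overlap, but at low values, and missed the threshold (log2 change -0.59 ± 0.19, adjusted p = 0.0576, limma). Without control replicate 1 or without irradiated replicate 1 Rab4a passed. The difference between the Rab4a and Rab4b changes was not tested.

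Rab10, which delivers membrane proteins such as glucose transporters and Toll-like receptors to the surface, fell. It measured 39.99, 41.0 and 36.4 FPKM in control and 32.5, 32.2 and 30.2 FPKM in irradiated libraries. Every irradiated value lay below every control value, and the log2 change was -0.30 ± 0.07 with a limma adjusted p of 0.0147. The call was lost without control replicate 1, without control replicate 2 and without irradiated replicate 3, with adjusted p up to 0.0717 over all alternatives. Rab10 shares 143 exonic bases with the antisense gene Rab10os, which was not analysed here. Rab35, a Rab of fast recycling to the plasma membrane, measured 43.8, 46.2 and 42.3 FPKM in control and 38.6, 39.9 and 36.4 FPKM in irradiated libraries. The groups did not overlap and Rab35 missed the threshold (log2 change -0.20 ± 0.07, adjusted p = 0.0672, limma). Rab8a, Rab8b, Rab11a and Rab11b, which carry cargo from the Golgi and recycling endosomes outward, had log2 changes from -0.14 to -0.10 and did not pass. Rab14, between the Golgi and endosomes, had a change of 0.02 with an interval from -0.12 to 0.15. T cell markers (11 of 12) and macrophage markers (12 of 12) fell in the libraries in which Rab10 fell, and their part in that change was not tested.

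RefSeq promoter sequences (GRCm38.p6) matched 47 of the 58 Rab genes by symbol. Those of Rab24 and Rab4b, which rose in every alternative, and of Rab10, which fell, are shown as examples of called members in each direction. Each sequence is the 250 bases before the annotated start on the minus strand, at chr13:55321981-55322230 for Rab24, chr7:27178884-27179133 for Rab4b and chr12:3309970-3310219 for Rab10. Capitals mark matches, on either strand, to GGGCGG (the GC box), CCAAT (the CCAAT box), CCGGAAG (an ETS core), CACGTG (the E-box), TGACGTCA (the CRE) or TATAAA (the TATA box), none of which overlapped another in these sequences.
Rab24: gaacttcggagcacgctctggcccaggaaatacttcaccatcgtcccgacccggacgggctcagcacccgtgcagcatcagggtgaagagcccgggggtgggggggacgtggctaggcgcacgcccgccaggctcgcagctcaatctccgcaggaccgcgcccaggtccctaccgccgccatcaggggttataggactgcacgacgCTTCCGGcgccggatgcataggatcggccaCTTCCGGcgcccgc
Rab4b: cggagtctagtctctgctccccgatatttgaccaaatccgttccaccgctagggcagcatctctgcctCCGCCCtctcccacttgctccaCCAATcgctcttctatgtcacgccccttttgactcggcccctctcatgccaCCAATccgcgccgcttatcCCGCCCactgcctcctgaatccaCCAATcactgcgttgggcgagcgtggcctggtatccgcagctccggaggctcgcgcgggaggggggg
Rab10: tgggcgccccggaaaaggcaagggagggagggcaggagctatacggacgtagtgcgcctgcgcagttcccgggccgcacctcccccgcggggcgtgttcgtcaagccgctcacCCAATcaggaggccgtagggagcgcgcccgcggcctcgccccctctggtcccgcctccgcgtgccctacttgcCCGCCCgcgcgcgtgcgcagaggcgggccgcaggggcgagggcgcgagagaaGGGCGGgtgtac
Rab24 had 2 ETS cores, 44 and 14 bases before the start, and 0 GC boxes. Rab4b had 3 CCAAT boxes and 2 GC boxes, and Rab10 had 1 CCAAT box and 2 GC boxes. Where a gene had several listed promoters, the first in the table was used for the shares over all genes and over Rabs alike. Over 27025 promoters of the same length, 32.9% held a GC box, 34.5% a CCAAT box, 7.05% an ETS core, 6.05% an E-box, 1.62% a CRE and 13% a TATA box. Of the 47 Rab promoters 32 held a GC box, 21 a CCAAT box, 3 an ETS core, 4 an E-box, 2 a CRE and 4 a TATA box. The median GC content was 60.4% in Rab promoters and 52.0% over all promoters. These matches describe letters in a fixed window and say nothing of binding.

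Of 4 tested Rabs of late endosomes and lysosomes, 1 fell (Rab29; 25.0%, against 10.3% of all tested genes) and 0 rose (against 6.29%), and at an unadjusted p under 0.05 1 was lower and 0 higher. Rab29, a partner of the kinase Lrrk2 at the Golgi and lysosomes, measured 23.7, 23.5 and 27.8 FPKM in control and 14.8, 20.5 and 20.3 FPKM in irradiated libraries. The groups did not overlap, with irradiated replicate 1 well below the rest. The log2 change was -0.42 ± 0.12 with a limma adjusted p of 0.0366, and Rab29 no longer passed when any 1 control library or irradiated replicate 1 was left out, with adjusted p up to 0.119. Rab7 had a log2 change of 0.00, and its 95% interval of -0.11 to 0.11 was the narrowest of the Rabs tested. Rab9, which returns receptors from late endosomes to the Golgi, and Rab7b had changes of 0.06 and 0.07 with intervals of -0.25 to 0.36 and -0.25 to 0.38. Rab32 and Rab38, best known from melanosomes and other lysosome-related organelles, did not pass. Of these 2 Rabs, 0 passed by limma, against 16.6% of all tested genes, and 0 had an unadjusted p under 0.05. Rab32 stood at 48.1 ± 3.67 and 46.0 ± 2.68 FPKM (SD, n = 3), and Rab38 at 4.39 ± 1.22 and 5.67 ± 1.497 FPKM.

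Of 10 tested Rabs of the ER and Golgi, 0 passed with limma, against 16.6% of all tested genes. At an unadjusted p under 0.05, 0 were higher and 2 lower. Over all 10666 tested genes, 1292 were higher and 1864 lower at that threshold. Rab1b, needed for transport from the ER to the Golgi, measured 104 (replicate 1), 109.5 (replicate 2) and 107 FPKM (replicate 3) in control and 109.8, 114 and 112 FPKM in irradiated libraries, and its partner Rab1a 62.5, 62.1 and 55.9 FPKM in control and 65.95, 65.6 and 62.95 FPKM in irradiated libraries. Neither gene's groups overlapped, by small margins, and the log2 changes of 0.07 ± 0.05 and 0.11 ± 0.06 had 95% intervals from -0.04 to 0.18 and from -0.03 to 0.25. Rab6a, of traffic within and from the Golgi, had a change of 0.05 ± 0.07. Rab2b measured 2.69, 3.40 and 3.17 FPKM in control and 2.28, 2.55 and 1.0 FPKM in irradiated libraries. Rab2b thus lay lower without overlap, with irradiated replicate 3 the lowest, and missed the threshold (log2 change -0.51 ± 0.21, adjusted p = 0.126, limma). Rab2b shares 195 exonic bases with Tox4 on the other strand, which fell by 0.35 on the log2 scale. Rab2a, its relative at the higher level, measured 8.85 ± 0.360 and 9.84 ± 0.398 FPKM (SD, n = 3), without overlap, and did not pass. Among the remaining tested Rabs, 0 of 3 passed with limma, against 16.6% of all tested genes, and 1 had an unadjusted p under 0.05. That gene, Rab28, measured 17.1, 18.3 and 14.3 FPKM in control and 19.2, 18.8 and 22.9 FPKM in irradiated libraries, without overlap (log2 change 0.28 ± 0.11, adjusted p = 0.112, limma).

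**Figure D4:**
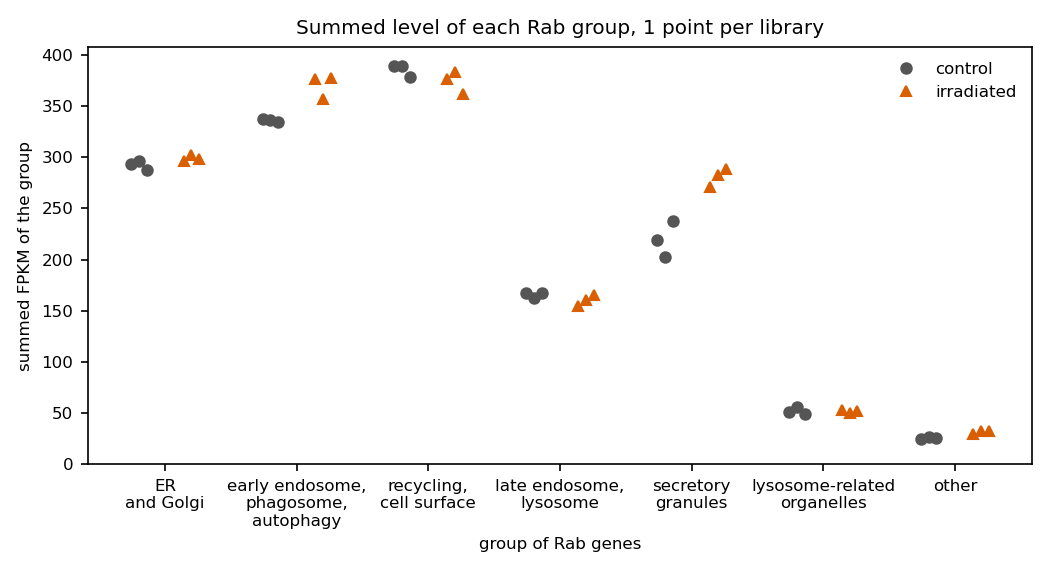
Summed FPKM of the Rab genes in each group by organelle, 1 point per library, for control (grey circles) and irradiated (orange triangles) libraries. The secretory Rabs lie at 202 to 238 FPKM in control and 271 to 289 FPKM in irradiated libraries, and those of late endosomes overlap between the groups on this scale.

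Summed by group, the early endosome Rabs stood at 334 to 337 FPKM in control and 357 to 377 FPKM in irradiated libraries, without overlap. The recycling Rabs overlapped (378 to 390 FPKM against 362 to 384 FPKM), as did those of late endosomes (162 to 168 FPKM against 155 to 165 FPKM). Those of the ER and Golgi also overlapped, at 287 to 297 FPKM against 296 to 302 FPKM. Every irradiated library had a higher FPKM total than every control library. As a share of that total, the recycling Rabs were lower without overlap (0.0828% to 0.0838% against 0.0746% to 0.0795%). The late endosome Rabs were too (0.0347% to 0.0371% against 0.0322% to 0.0340%). The early endosome Rabs overlapped on that scale (0.0717% to 0.0740% against 0.0739% to 0.0782%). So did those of the ER and Golgi, while the secretory Rabs lay higher without overlap. Sums follow the most abundant members, so that the secretory sum is mostly Rab44, Rab27a and Rab3d.

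Several of the 13 numbered families with more than 1 listed member were carried by a single member in both groups. Rab27a made up 99.5% ± 0.0664 of the summed Rab27 FPKM in control and 99.3% ± 0.435 in irradiated libraries (SD, n = 3). Rab7 made up 97.8% ± 0.224 and 97.7% ± 0.236 of Rab7 and Rab7b, Rab3d 96.96% ± 0.579 and 97.3% ± 0.889 of the Rab3 genes, and Rab6a 96.4% ± 0.928 and 96.95% ± 0.764 of Rab6. Rab4b made up 94.7% ± 1.44 of Rab4 in control and 97.7% ± 0.598 in irradiated libraries, and its share in each irradiated library was above that in each control library. Rab2a made up 74.2% ± 1.94 and 83.8% ± 6.11 of Rab2. The Rab11 pair was the most even, with Rab11a at 55.3% ± 1.79 and 56.1% ± 5.80. These shares are a description and were not tested.

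The 15 members with a mean under 1 FPKM were not tested. Rab25, a relative of Rab11 best known from epithelia, was listed at 0.240, 0.0974 and 0 FPKM in control and at 1.25, 0.777 and 0.470 FPKM in irradiated libraries. The groups did not overlap, at levels near the floor of these libraries. Rab34, a Golgi and cilium Rab, was listed at 0.735, 0.260 and 0.342 FPKM in control and at 0, 0.172 and 0.235 FPKM in irradiated libraries, also without overlap. Rab3c was listed at 0 in every control library and Rab40b at 0 in every irradiated library, and their highest values were 0.0338 and 0.149 FPKM. The neuronal and epithelial Rabs Rab3b, Rab26 and Rab17 were each at 0 in at least 1 library.

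Genes that run the Rab cycle moved in both directions. Of 117 tested genes in lists of recycling and prenylation factors, exchange factors, GAPs and effectors, 11 rose and 7 fell. These are 15.4% of the genes tested in those lists, against 16.6% of all tested genes, and 9.40% rose (background 6.29%) while 5.98% fell (background 10.3%). Without control replicate 1 the number called was 10, and without control replicate 2 it was 8, where 11.4% and 10.7% of all tested genes were called. The medians of the lists lay between 0.03 and 0.08 on the log2 scale.

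Among the factors that prenylate, extract or escort Rabs, Gdi2, a GDP dissociation inhibitor, was at 156 ± 6.94 and 145 ± 4.67 FPKM in control and irradiated libraries (SD, n = 3). The Gdi2 groups did not overlap, and the log2 change of -0.11 ± 0.05 did not pass (adjusted p = 0.193, limma), though it did with quantile normalization (0.0392). Rabggtb, the catalytic subunit of the enzyme that attaches the lipid anchor, was at 19.4 ± 2.21 and 23.3 ± 0.873 FPKM and missed the threshold (adjusted p = 0.0768, limma), as did its partner Rabggta (0.216).

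Of 40 tested exchange factors 4 rose and 3 fell (10% and 7.5%, against 6.29% and 10.3% of all tested genes). Dennd3, an exchange factor for Rab12, rose from 6.64 ± 0.828 to 10.4 ± 0.524 FPKM (SD, n = 3; log2 change 0.58 ± 0.11, adjusted p = 0.00522, limma). Rab12 itself stood at 9.13 ± 0.0787 and 8.845 ± 0.425 FPKM and did not pass. Trappc6a, a subunit of the TRAPP complexes that act on Rab1, rose by 0.43 ± 0.09. Rin3, an exchange factor for Rab5 and Rab31, fell from 51.6 ± 1.57 to 42.98 ± 0.745 FPKM (log2 change -0.26 ± 0.06, adjusted p = 0.0122, limma), in libraries in which Rab31 rose. Without control replicate 1 Rin3 had an adjusted p of 0.0586. Dennd1a, an exchange factor for Rab35, fell from 10.9 ± 0.338 to 7.59 ± 1.52 FPKM (log2 change -0.49 ± 0.13), but missed the threshold when any library other than irradiated replicate 2 was left out (adjusted p up to 0.0819).

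Of 33 tested GAPs 3 rose and 1 fell (9.09% and 3.03%, against 6.29% and 10.3% of all tested genes). Tbc1d2, which acts on Rab7, had the largest rise, from 12.1 ± 1.54 to 21.4 ± 0.959 FPKM (SD, n = 3; log2 change 0.78 ± 0.10, adjusted p = 0.000258, limma), while Rab7 stayed at 126 ± 3.83 and 126 ± 1.11 FPKM. Tbc1d8 rose from 31.1 ± 2.86 to 40.4 ± 0.744 FPKM and Tbc1d7, a subunit of the tuberous sclerosis complex, from 2.77 ± 0.928 to 5.45 ± 1.42 FPKM, and Tbc1d7 missed the threshold without control replicate 1 or 2 or without irradiated replicate 2 or 3 (adjusted p up to 0.0988). Tbc1d9 fell from 5.24 ± 0.989 to 2.76 ± 0.371 FPKM (log2 change -0.72 ± 0.15).

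Of 36 tested genes listed as effectors 3 rose and 3 fell (8.33% each way, against 6.29% and 10.3% of all tested genes). Whether the product of each listed gene binds a Rab was not examined here. Sytl2, which links Rab27 to membranes in cytotoxic lymphocytes and other secretory cells, fell from 2.85 ± 0.260 to 1.503 ± 0.103 FPKM (SD, n = 3; log2 change -0.62 ± 0.14, adjusted p = 0.0114, limma). NK cell markers fell in the same libraries (6 of 7), and their part in the fall of Sytl2 was not tested. Uso1, a tether of Rab1 at the Golgi, rose by 0.33 ± 0.08, and missed the threshold without control replicate 1 or 2 or without irradiated replicate 2 or 3 (adjusted p up to 0.0736). Rilpl2 and Rims3 fell, with log2 changes of -0.35 ± 0.10 and -0.80 ± 0.21, but Rilpl2 missed the threshold when any library other than irradiated replicate 1 was left out (adjusted p up to 0.109), and Rims3 without control replicate 2 or 3 or irradiated replicate 3 (up to 0.0967). Rilpl2 missed it in 10 of 13 alternatives in all, among them the replicate block (0.0551), median-of-ratios scaling (0.0504) and quantile normalization (0.0534). Rims3 also missed it with quantile normalization (0.0545) and without the filter (0.0544), Dennd1a (0.0730) and Tbc1d7 (0.1001) without the filter, and Tbc1d7 (0.0567) and Rin3 (0.0524) without a variance trend. Rims3 lay near the floor, at 1.75 ± 0.458 and 0.594 ± 0.328 FPKM.

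**Figure D5:**
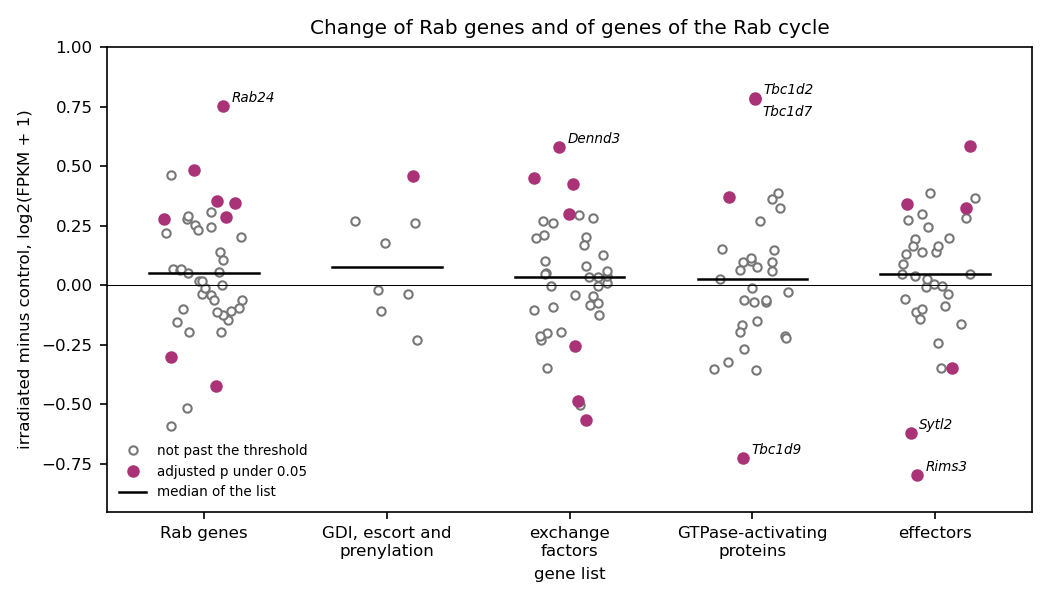
Difference between irradiated and control libraries in log2(FPKM + 1) for tested Rab genes and for tested genes of 4 lists of the Rab cycle, 1 point per gene with horizontal scatter for clarity, and the median of each list as a bar. Filled points passed an adjusted p of 0.05 over all genes: the farthest are Rab24 (0.75), Tbc1d2 and Tbc1d7 (0.78 each, drawn over each other) above, and Tbc1d9 (-0.72) and Rims3 (-0.80) below.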

How the data were processed

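RNA was measured by RNA-seq in 6 libraries of sorted bone marrow Tregs, 3 per group. The authors deposited 1 FPKM value per gene and library. The unit was read from the values, since totals differ between libraries while value times exonic length sums to nearly the same, and the file headers name only gene and sample. Libraries came from a stranded mRNA kit, per the labels' protocols. The tools were fastp, HISAT2 and StringTie and the builds GRCm38 and mm10, per the submitters' processing notes, with no version or setting given in the sources used here. Without counts the sampling error of low values cannot be computed, and a change on this scale is understated for low genes.

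The test was limma 3.58.1 in R 4.3.3 on log2(FPKM + 1), for genes averaging 1 FPKM or more (eBayes with a trend, two-sided, Benjamini-Hochberg over 10666 genes, threshold 0.05). Python 3.11.15, pandas 2.3.3 and matplotlib 3.10.9 made tables and plots. The fit was tested on simulated data. Relative depth came from genes under 0.1 FPKM, as the scaling under which most pairs of values fell within 0.001 of a ratio of small whole numbers (at most 6). Positions are from GENCODE M21 on GRCm38.

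The Rab genes, their grouping by organelle, the 4 lists of the Rab cycle and the 10 marker lists were chosen with earlier results of these data known. Named Rab genes were those past the threshold, the 10 highest, those without overlap and with a change of at least 0.25, and those at 0 in a group. In each Rab cycle list the 4 genes with the lowest p were named, and 1 of them is not reported here. Other Rabs are named for their role or level and were chosen after their values were seen. Each of 13 alternatives changed 1 choice: the pseudocount (0.1), the filter (none, or a mean of 5 FPKM), the scaling (median of ratios, or quantile), the variance trend (none), the replicate block, or the libraries (each left out once).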

Additional observations from a re-analysis of the deposited data

How the results depend on the processing

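Of the 8 Rab genes called, 3 kept their call in each of 13 alternative fits, 5 lost it in at least 1 and 0 changed direction. Of the 13 Rab cycle genes past the threshold that met the naming rule, 6 kept their call in each fit that tested them (12 or 13), 7 lost it in at least 1 and 0 changed direction. Without a variance trend 4 Rabs were called, 0 of them lower (6 lower at an unadjusted p under 0.05), and 6 Rab cycle genes were higher. Of all tested genes 13.2% were called there, against 16.6% in the main fit. Without the filter 1 Rab was lower and 8 Rab cycle genes were called (5 higher and 3 lower), where 9.14% of all genes were called. That fit also took in the 15 low Rabs, of which 1 passed, Rab25 (log2 change 0.70 ± 0.16, limma adjusted p = 0.0431). With quantile normalization 1 Rab was lower, and at a minimum mean of 5 FPKM 4 Rab cycle genes were lower, where fewer genes were tested. The shares of all tested genes called there were 16.9% and 19.3%. Leaving out 1 library gave 3 to 7 Rabs called (3 to 5 higher, 0 to 2 lower) and 8 to 16 Rab cycle genes (5 to 12 higher, 3 to 5 lower), from fewer samples. In those fits 10.7% to 15.6% of all tested genes were called. The causes of the shifts between fits were not tested. Same-numbered libraries did not deviate together (r from -0.04 to 0.01 across genes, which are not replicates). Control replicate 1 was the only library that correlated best with its own number. The replicate block gave 7 Rabs (5 higher and 2 lower) and 16 Rab cycle genes, where 14.1% of all tested genes were called. The absolute depth is unknown, so for Rabs near 1 FPKM a difference such as that of Rab25 has no counting error beside it.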
